A study of Mus musculus with 18 samples.

Results

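Retinoic acid synthesis and response genes were examined in bulk RNA sequencing of mouse retinal pigment epithelium (RPE), the pigmented layer behind the photoreceptors. The set comprised 10 genes, taken by symbol from the 21859 rows of a count table: Aldh1a1, Aldh1a2, Aldh1a3, Cyp26a1, Cyp26b1, Dhrs3, Rara, Rarb, Rxra and Crabp1. Each symbol had 1 row, and all 10 passed the filter on low counts that left 15944 genes. The libraries fall into 4 groups, all of RPE: 7 from young mice (Young), 4 from old mice with no vector named (Old), 3 from old mice that received AAV2-tTA (Old-Control) and 4 from old mice that received AAV2-tTA;TRE-OSK (Old-OSK). In these names AAV2 denotes a vector derived from adeno-associated virus, tTA a transactivator regulated by tetracyclines, TRE the promoter on which tTA acts, and OSK the trio of transcription factors Oct4, Sox2 and Klf4. Both vector groups carry tTA, so by their labels they differ in TRE-OSK. The age in weeks or months, the strain, the dose and time of the vectors, the promoter driving tTA, and whether animals were pooled are not given in the sources used here. Nothing in them says that libraries of a group came from separate animals, so the p-values measure the spread between libraries, which may be partly technical.

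Retinoic acid is made from vitamin A in a pair of oxidations. Retinol is first oxidised to retinaldehyde, a reversible step that reductases such as Dhrs3 run backwards, and retinaldehyde is then oxidised irreversibly by the aldehyde dehydrogenases Aldh1a1, Aldh1a2 and Aldh1a3. Crabp1 binds retinoic acid in the cytoplasm, Cyp26a1 and Cyp26b1 degrade it, and in the nucleus it binds retinoic acid receptors (Rara, Rarb), which act on DNA as dimers with retinoid X receptors such as Rxra. In the RPE retinaldehyde is above all the substrate of the visual cycle, which regenerates the light-sensitive chromophore of the photoreceptors.

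Rarb and Cyp26a1 are classical direct targets of these receptors, and the response element lies in their promoters. Part of both promoters is shown because these 2 members of the set are such targets, read below beside the enzymes that make retinoic acid. Whether other members are targets too was not examined. Windows of 300 bases around RefSeq start sites (GRCm38.p6) were found for 9 of the 10 genes, 16 windows in all, the exception being Aldh1a3. They were searched on both strands for direct repeats of the half-site AGGTCA or its variants AGTTCA and GGGTCA, or the variant GGTTCA, with a spacer of 5, 2 or 1 bases. Of the 16 windows, 2 held a match, both with a spacer of 5 bases, against 0.588% of all 32851 windows for any spacer and 0.0974% (32 windows) for the spacer of 5. Both matches belong to Rarb and Cyp26a1, known beforehand to carry the element, so these shares say nothing about the set as a whole. The half-sites are in capitals in the stretches below, each read 5′ to 3′ on the strand of its gene.
Cyp26a1: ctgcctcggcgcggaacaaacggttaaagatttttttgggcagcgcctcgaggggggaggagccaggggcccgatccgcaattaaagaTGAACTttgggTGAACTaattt
Rarb: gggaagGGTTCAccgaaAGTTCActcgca
The Cyp26a1 stretch is chr19:37697688-37697797 on the plus strand and ends 11 bases before the start site. Its match lies on the minus strand at chr19:37697776-37697792, where it reads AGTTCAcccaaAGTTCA. The Rarb match is at chr14:16575513-16575529 on the minus strand, 53 to 37 bases before the RefSeq start site, and GENCODE M21 places it in the 5′ untranslated exon of a longer Rarb transcript. A match is a description of the sequence, and no binding was measured here.

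Library totals ranged from 18104828 to 32348136 counts. The RPE markers Rpe65, Best1, Rrh, Rgr, Tyrp1, Otx2 and Mitf were detected in all 18 libraries, with summed levels of 19400 to 32300 CPM (library-scaled counts, TMM) in Young, 12400 to 22500 in Old, 8960 to 27200 in Old-Control and 6110 to 11800 in Old-OSK. Rgr and Rpe65 made up most of each RPE sum (18200 and 5340 of 25700 CPM in Young replicate 1). Transcripts of other ocular cells were present in every library. The 4 corneal epithelium markers (Krt12, Krt5, Krt14, Aldh3a1) summed to 80.2 to 2680 CPM in Young, 423 to 12500 in Old, 652 to 2190 in Old-Control and 1930 to 17300 in Old-OSK, and none of them was at 0 in any library. In edgeR, 2 of these 4 were called higher in Old than in Young (list median 2.67 on the log2 scale), as were 5 of 7 immune cell markers (median 1.55). Called lower in Old were 1 of 7 RPE, 2 of 8 stromal fibroblast, 1 of 5 mural cell, 1 of 4 melanocyte and 1 of 6 lens markers, and none was called for cones (median 0.88), Müller glia, endothelium, red blood cells or Schwann cells. In Old-OSK against Old-Control no marker of these 12 lists was called. In bulk RNA, fewer cells of a type and less RNA per cell cannot be told apart. The letter M stands in the names of 6 libraries (Young replicates 5 to 7, Old-Control replicates 2 and 3, Old-OSK replicate 4), and the labels do not explain it.

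The genes differed widely in level. Mean CPM per kilobase of exon over the 18 libraries was 54.1 for Dhrs3, above 95% of the 15738 tested genes with a length, then 22.3 for Aldh1a1 and 15 for Rxra. Aldh1a3 (6.03), Aldh1a2 (4.39), Rara (3.66) and Rarb (2.79) lay in the middle of the distribution, above 60.7%, 52.7%, 48.6% and 42.4% of genes. Crabp1 (2.3), Cyp26b1 (1.88) and Cyp26a1 (1.11) were the lowest of the set. On this per-length scale Dhrs3 was the highest of the 10 in each of the 4 groups.

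**Figure D1:**
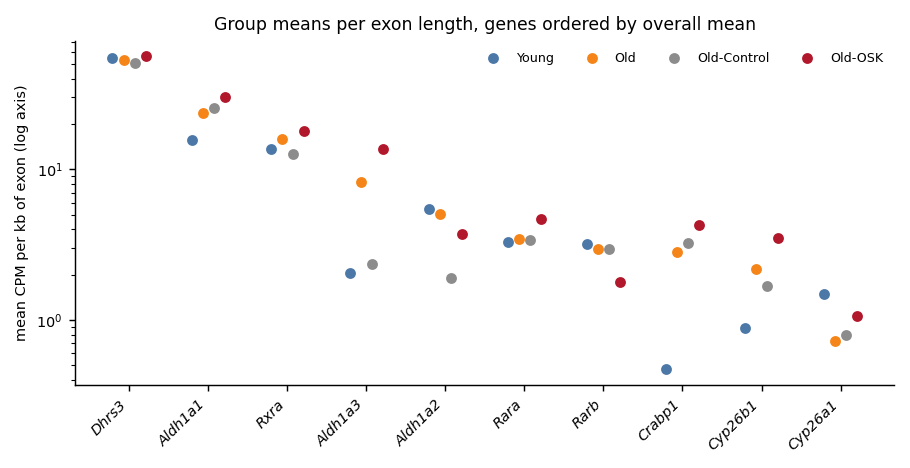
Mean CPM per kilobase of exon (log axis) of each gene in Young, Old, Old-Control and Old-OSK, 1 point per group, with genes ordered from left to right by their mean over all 18 libraries. Dhrs3 is highest at 54.1 and Cyp26a1 lowest at 1.11, and the 4 groups lie closest together for Dhrs3.

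Among the 10 genes, the only edgeR call with age was Crabp1, higher in Old than in Young and at the edge of the threshold. Of 20 alternative fits, 4 called it. In edgeR's quasi-likelihood test, 1 of 10 was called at an adjusted p under 0.05 (Benjamini-Hochberg over 15944 genes), against 9.56% of all genes, so the share of the set was close to that of the whole table. Before adjustment, 4 of 10 had p under 0.05, with Aldh1a3, Cyp26b1 and Crabp1 higher and Cyp26a1 lower, against 4619 of all 15944. DESeq2 called 3 of the 10, Aldh1a3, Cyp26a1 and Crabp1, against 15.4% of all genes. The groups did not overlap for 1 of 10 genes, Crabp1, against 9.3% of all genes. The median log2 fold change was 0.139 over the set and −0.004 over all genes tested.

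In Old-OSK against Old-Control, none of the 10 genes was called by edgeR, against 0.728% of all genes. Before adjustment, 5 of 10 had p under 0.05, with Aldh1a2, Aldh1a3, Rara and Rxra higher and Rarb lower, against 4194 of 15944. DESeq2 called 2 of the 10, Aldh1a3 and Rarb, against 11.6% of the 14081 genes it tested. The fit with the replicate block, which lacks Old-OSK replicate 4, called 1, Aldh1a3, against 3.02%. The groups did not overlap for 2 of 10 genes, Aldh1a2 and Rarb, against 12.4% of all genes. The median log2 fold change was 0.458 over the set and −0.028 over all genes.

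In Old-Control against Old, again none of the 10 was called by edgeR, against 0% of all genes, and DESeq2 called none of them, against 0% of all genes. Before adjustment 2 of 10 had p under 0.05, Aldh1a2 and Aldh1a3, both lower in Old-Control, against 596 of 15944. The groups did not overlap for 1 of 10 genes, Aldh1a2, against 3.18% of all genes. Old is shared with the age comparison and Old-Control with the OSK comparison, so the values of these comparisons are not independent of each other.

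**Figure D2:**
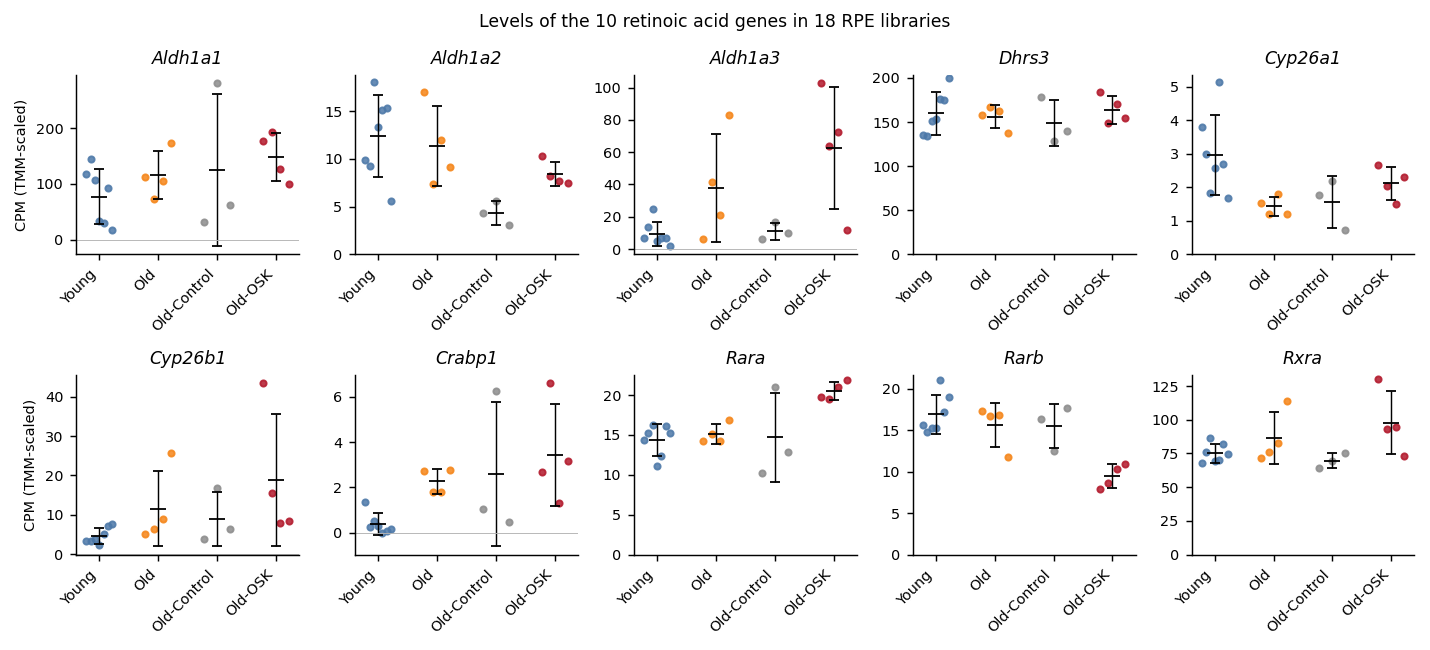
CPM of each of the 10 genes in every library of Young (n = 7), Old (n = 4), Old-Control (n = 3) and Old-OSK (n = 4), with the mean ± SD of each group. Aldh1a3 runs from 2.02 to 103 CPM, while Dhrs3 stays between 128 and 200, and the 4 Old-OSK points of Rarb lie below all others.

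**Figure D3:**
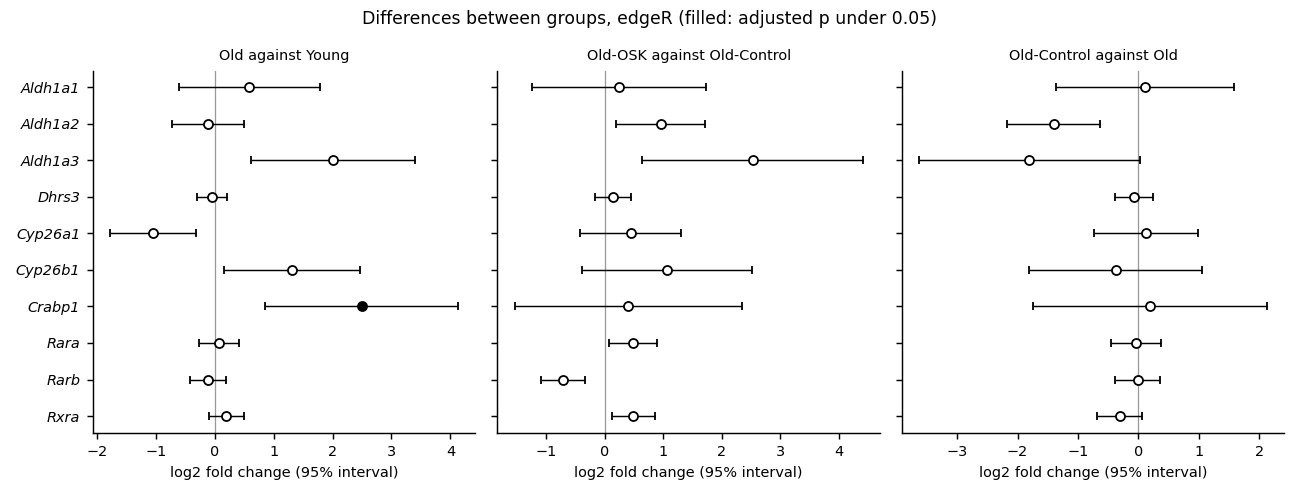
Log2 fold change from edgeR of each gene in the 3 comparisons, with a 95% interval derived from its F statistic, filled where the adjusted p was under 0.05. Crabp1 in Old against Young (2.50) is the only filled point, and the interval of Dhrs3 in that comparison runs from −0.3 to 0.21.

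The synthetic enzyme with the widest spread was Aldh1a3 (chr7:66390890-66427517, minus strand, GRCm38), which varied 50.8-fold over the libraries. Young ranged from 2.02 to 24.7 CPM with a median of 7. The Old libraries measured 6.32, 41.7, 20.8 and 83.3 CPM, Old-Control 6.19, 16.5 and 9.92, and Old-OSK 103, 64, 72.3 and 11.7. Thus 3 of the 4 Old-OSK libraries and Old replicates 2 and 4 were above every Young and Old-Control library, yet each neighbouring pair of groups overlapped. The age difference was 2.01 ± 0.65 on the log2 scale (SE, adjusted p = 0.0576, edgeR), and the OSK difference 2.53 ± 0.88 (adjusted p = 0.104), neither past the threshold. Without Old-OSK replicate 4, which carries M, the OSK difference was 2.84 (adjusted p = 0.0425, edgeR). The fit with the replicate number as a block also lacked that library and gave 2.94 (adjusted p = 0.0471, edgeR), so these fits are not separate checks. DESeq2 called the age and the OSK difference (adjusted p = 0.0157 and 0.0207). Among libraries without M, 1 Old-Control library at 6.19 CPM stood against 3 Old-OSK libraries at 64 to 103, and among those with M, 2 Old-Control libraries at 9.92 and 16.5 stood against 1 Old-OSK library at 11.7, too few for a test within either. With M as a covariate the OSK difference was 1.63 (adjusted p = 0.377, edgeR). Old replicate 4 decides much of the age value, which was 1.28 without that library (adjusted p = 0.334, edgeR), while without Old replicate 1 it was 2.36 (adjusted p = 0.0219) and without Young replicate 3 it was 2.46 (adjusted p = 0.0223).

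Aldh1a3 followed the corneal epithelium markers from library to library. Old replicate 4, at 83.3 CPM of Aldh1a3, held 12500 CPM of the 4 markers, and the next highest Old library, replicate 2, held 41.7 and 3720. Old-OSK replicate 4, at 11.7 CPM of Aldh1a3, held 1930 CPM of markers, against 10800 to 17300 in the other 3 Old-OSK libraries. After subtraction of group means on the log2 scale, Aldh1a3 and the mean log2 CPM of the markers correlated across the 18 libraries with Pearson's r of 0.94 and Spearman's rho of 0.87 (r = 0.92 without the 2 libraries farthest from the median). The libraries share their depth and composition, so this is a description. Per 1000 CPM of these markers, Aldh1a3 had a median of 12.4 CPM in Young (9.22 to 25.3), 9.61 in Old (6.65 to 15), 7.51 in Old-Control (7.4 to 9.49) and 6 in Old-OSK (5.44 to 6.71). With the marker score as a covariate the age difference was 0.23 (adjusted p = 0.775, edgeR) and the OSK difference 0.22 (adjusted p = 0.976). The 3 genes most like Aldh1a3 in these deviations were Pkp3, a desmosomal plakophilin, and the epithelial keratins Krt6a and Krt6b, each with r = 0.99.

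Aldh1a1 (chr19:20492715-20643465) was the most abundant of the 3 dehydrogenases. It ranged from 17.7 to 144 CPM in Young with a median of 93.2. The Old libraries measured 113, 73.6, 105 and 174 CPM, Old-Control 32, 281 and 63.3, and Old-OSK 176, 192, 126 and 99.4. All neighbouring groups overlapped, and Old-Control alone spanned almost the whole range through its replicate 2. The log2 difference was 0.59 ± 0.56 with age (adjusted p = 0.518, edgeR) and 0.24 ± 0.69 with OSK (adjusted p = 0.874), the latter with a 95% interval of −1.25 to 1.73 that leaves its direction undetermined. Leaving out replicate 2 of Old-Control gave an OSK difference of 1.6 (adjusted p = 0.111), and leaving out its replicate 1 gave −0.21.
In deviations from the group means Aldh1a1 moved with the Müller glia markers Glul, Aqp4, Slc1a3, Kcnj10 and Dkk3 (r = 0.91, rho = 0.87, r = 0.86 without the 2 farthest libraries). Those 5 markers summed to 2660 to 4520 CPM in Young, 2530 to 3290 in Old, 2210 to 3670 in Old-Control and 2770 to 3080 in Old-OSK. Most of each sum was Glul, at 1730 to 2410 CPM, whereas Aqp4 ran from 2.81 to 89.9 CPM and Kcnj10 from 1.18 to 32.8. The correlation used the mean log2 CPM of the list, from 5.34 in Young replicate 7 to 7.93 in Old-Control replicate 2. The part of Müller glia in the level of Aldh1a1 was not tested. The 3 most similar genes were Aldh1a7 (r = 0.97), Tst (0.96) and Dach1 (0.94). Aldh1a7 is a close paralogue of Aldh1a1, so how reads were divided between them is uncertain.

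Aldh1a2 (chr9:71215789-71296243), the dehydrogenase that supplies most retinoic acid to the early embryo, was lowest in Old-Control. Young ranged from 5.62 to 18.1 CPM with a median of 13.3. The Old libraries measured 17, 7.42, 12 and 9.12 CPM, Old-Control 4.33, 5.61 and 3.02, and Old-OSK 10.3, 8.19, 7.67 and 7.47. Every Old-Control library was below every library of the other groups, by a narrow margin against Young replicate 7. The difference was −1.40 ± 0.36 in Old-Control against Old (adjusted p = 0.9, edgeR) and 0.96 ± 0.35 in Old-OSK against Old-Control (adjusted p = 0.116). Neither passed the adjusted threshold, and both rest on the same 3 Old-Control libraries. With age the difference was −0.12 ± 0.28 (adjusted p = 0.813, edgeR). Of the marker lists, stromal fibroblasts gave its highest correlation of deviations (r = 0.54, rho = 0.45), which was 0.17 without the 2 farthest libraries. For the corneal markers r was 0.19 (rho = 0.06), or 0.56 without the 2 farthest. The genes most like it were Cdh22 (r = 0.77), Trmt10c (0.73) and Slc38a8 (0.72).

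Dhrs3 (chr4:144892827-144928209), which reduces retinaldehyde back to retinol and so limits retinoic acid formation, was high and even. It ranged from 134 to 200 CPM in Young with a median of 153, and measured 158, 167, 162 and 137 in Old. Old-Control libraries were at 178, 128 and 140 CPM and Old-OSK libraries at 184, 149, 170 and 155. Its highest and lowest libraries differed 1.57-fold, and all groups overlapped. The log2 difference was −0.04 with age (95% interval −0.3 to 0.21, adjusted p = 0.854, edgeR) and 0.14 with OSK (−0.17 to 0.45, adjusted p = 0.58). Per 1000 CPM of the 7 RPE markers, Dhrs3 had medians of 6.62 CPM in Young, 7.54 in Old, 6.55 in Old-Control and 16.6 in Old-OSK, since the marker sum was lower in Old-OSK and Dhrs3 was not. Its deviations ran against those of the Müller markers (r = −0.82, rho = −0.8) and were most like those of Creld2 (r = 0.91), Atp2a2 (0.91) and Atg13 (0.88).

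The retinoic acid hydroxylase Cyp26a1 (chr19:37697798-37701536) was scarce, with 18 to 117 counts per library. Young ranged from 1.69 to 5.15 CPM with a median of 2.7. The Old libraries measured 1.53, 1.2, 1.8 and 1.2 CPM, Old-Control 1.78, 2.2 and 0.714, and Old-OSK 2.66, 2.04, 1.49 and 2.3. The Old libraries were at the low end of Young and overlapped it only through Young replicate 7. The age difference was −1.04 ± 0.34 (adjusted p = 0.0591, edgeR), just outside the threshold. DESeq2 gave an adjusted p of 0.0223, and without Young replicate 3 the edgeR value was −1.13 (adjusted p = 0.04). The OSK difference was 0.44 ± 0.4 (adjusted p = 0.538, edgeR). Deviations of Cyp26a1 were most like those of Cited1 (r = 0.85), Tmem161b (0.84) and Pdgfra (0.84), the last a stromal fibroblast marker, and its r with all 8 stromal markers was 0.67, or 0.42 without the 2 farthest libraries. Those stromal markers summed to 276 to 457 CPM in Young and 213 to 289 in Old. Their part in the age difference was not tested.

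Its relative Cyp26b1 (chr6:84571414-84593908, minus strand) was higher on average in Old than in Young, without passing the test. It ranged from 2.42 to 7.65 CPM in Young with a median of 3.91. The Old libraries measured 5.08, 6.48, 9.05 and 25.8 CPM, Old-Control 3.9, 16.7 and 6.31, and Old-OSK 43.5, 15.5, 7.82 and 8.44. A single library was far above the rest in Old (replicate 4), in Old-Control (replicate 2) and in Old-OSK (replicate 1). Each was also the highest of its group in corneal markers, at 12500, 2190 and 17300 CPM. Yet deviations of Cyp26b1 correlated with the corneal markers at r = 0.38 only (rho = 0.38), or 0.1 without the 2 farthest libraries. Its strongest r was −0.62, with the endothelial markers (rho = −0.53, r = −0.57). The age difference was 1.31 ± 0.54 (adjusted p = 0.117, edgeR) and 0.55 without Old replicate 4 (adjusted p = 0.629). The OSK difference was 1.07 ± 0.68 (adjusted p = 0.34), or 0.20 without Old-OSK replicate 1 (adjusted p = 0.894) and 1.85 without Old-Control replicate 2 (adjusted p = 0.0935). The genes most like it were Nudt2 (r = 0.92), Blvrb (0.88) and Cdc37 (0.88).

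Crabp1 (chr9:54764748-54773110), the cytoplasmic binding protein, was higher in Old than in Young, where its level was near 0. The 7 Young libraries held between 0 and 42 counts, or 0 to 1.36 CPM with a median of 0.257. The 4 Old libraries held 57, 34, 57 and 92 counts, or 2.73, 1.78, 1.8 and 2.75 CPM, all above every Young library. Old-Control measured 1.02, 6.26 and 0.476 CPM and Old-OSK 2.66, 6.61, 1.29 and 3.16. The count of 0 in Young replicate 5 allows a level of up to 0.174 CPM, covering counting error only. The age difference was 2.50 ± 0.76 on the log2 scale (95% interval 0.86 to 4.13, adjusted p = 0.0486, edgeR), higher in 4 of 4 Old libraries than in any Young library. That call stood at the edge of the threshold: among the 11 fits leaving out 1 library each it held in 1, without Young replicate 1 (3.31, adjusted p = 0.0185), and the adjusted p reached 0.161 without Old replicate 4. Over all those fits the difference was 2.30 to 3.31. The libraries without M alone gave 1.88 (adjusted p = 0.114), DESeq2 2.56 (adjusted p = 0.0132).
In deviations from the group means Crabp1 moved with 6 cone photoreceptor markers (r = 0.72, rho = 0.67, r = 0.57 without the 2 farthest libraries). The cone markers summed to 56.1 to 101 CPM in Young, 73.2 to 135 in Old, 54.8 to 280 in Old-Control and 58.6 to 295 in Old-OSK. In Young replicate 5 most of the sum of 63.5 CPM was Gnat2 (38.5) and Pde6c (22.4), with Opn1mw at 0.0579. The correlation used the mean log2 CPM of the list, which ran from 0.939 to 3.63 in Young and from 2.93 to 4.21 in Old. The part of these retinal cell types in the age difference was not tested. The OSK difference was 0.4 ± 0.91, with a 95% interval of −1.54 to 2.35 (adjusted p = 0.836, edgeR).

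Of the 3 receptors, Rarb (chr14:16430839-16819156, minus strand), itself a target of retinoic acid, was lowest in Old-OSK. Young ranged from 14.8 to 21 CPM with a median of 15.6, and Old measured 17.3, 16.7, 16.8 and 11.7. Old-Control libraries were at 16.3, 12.5 and 17.7 CPM. Old-OSK libraries were at 7.84, 8.61, 10.3 and 10.9, below each of the other 14 libraries. The OSK difference was −0.72 ± 0.17 (95% interval −1.09 to −0.34, adjusted p = 0.061, edgeR). DESeq2 called it (−0.71, adjusted p = 0.0111). In edgeR it was called without Old-Control replicate 2 (−0.88, adjusted p = 0.00823) and without Old-OSK replicate 4 (−0.84, adjusted p = 0.021), and its range over the 7 fits leaving out 1 library was −0.88 to −0.61, with an adjusted p of 0.308 without Old-Control replicate 1. Among libraries without M, Rarb was at 16.3 CPM in 1 Old-Control library and 7.84 to 10.3 in 3 Old-OSK libraries, and among those with M at 12.5 and 17.7 in Old-Control and 10.9 in Old-OSK. The age difference was −0.11 ± 0.14 (adjusted p = 0.657, edgeR).

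Deviations of Rarb correlated with those of several marker lists. They ran with the red blood cell markers (r = 0.73, rho = 0.75, r = 0.69 without the 2 farthest libraries) and the RPE markers (r = 0.68, rho = 0.69, r = 0.62), and against the corneal markers (r = −0.76, rho = −0.8, r = −0.68). The red blood cell markers summed to 60.2 to 263 CPM in Young, 89.4 to 146 in Old, 72.4 to 120 in Old-Control and 57.3 to 286 in Old-OSK, so unlike the RPE sum they were not lower in Old-OSK. Outside Old-OSK, the 2 libraries lowest in Rarb were also the 2 lowest in RPE markers: Old replicate 4 with 11.7 CPM of Rarb and 12400 of the markers, and Old-Control replicate 2 with 12.5 and 8960. Per 1000 CPM of the RPE markers Rarb was not lower in Old-OSK: its medians were 0.653 CPM in Young (0.583 to 0.783), 0.791 in Old (0.747 to 0.94), 0.802 in Old-Control (0.599 to 1.4) and 1.04 in Old-OSK (0.665 to 1.41). This ratio is mainly one to Rgr and Rpe65, which with Rrh, Otx2 and Mitf were lower on average in Old-OSK than in Old-Control. Tyrp1 (453 to 698 CPM in Old-OSK, 210 to 595 in Old-Control) and Best1 were higher on average. With the corneal marker score as a covariate the OSK difference was −0.42 (adjusted p = 0.699, edgeR). The genes most like Rarb were Maged1 (r = 0.96), Wdr6 (0.94) and Ipo9 (0.94).

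**Figure D4:**
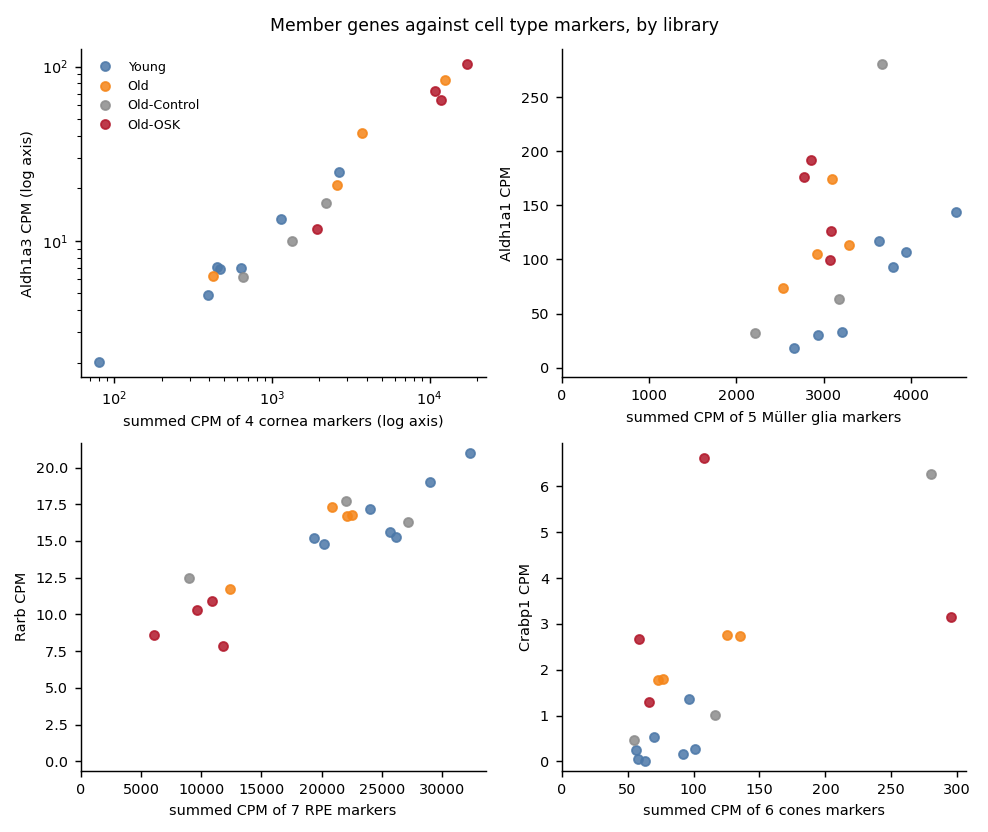
Level of Aldh1a3, Aldh1a1, Rarb and Crabp1 (CPM, vertical) against the summed CPM of corneal, Müller glia, RPE and cone markers (horizontal), 1 point per library and colour per group, with log axes for Aldh1a3 alone. Aldh1a3 climbs with the corneal sum from 2.02 CPM at 80.2 to 103 CPM at 17300, and the 4 Old-OSK libraries sit at the lower left for Rarb, with 6110 to 11800 CPM of RPE markers.

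Rara (chr11:98927818-98974942), the receptor expressed most widely, was higher in Old-OSK by 0.48 ± 0.19 without passing the test (adjusted p = 0.137, edgeR). It ranged from 11.1 to 16.3 CPM in Young with a median of 15.2 and measured 14.3, 15.1, 14.2 and 16.9 in Old. Old-Control libraries were at 10.2, 21 and 12.9 CPM, and Old-OSK libraries at 19.7, 19.5, 21 and 21.9. Only Old-Control replicate 2 overlapped with Old-OSK, and without it the difference was 0.80 (adjusted p = 0.00752). That library was also low in RPE markers (8960 CPM), and the deviations of Rara ran against the RPE markers (r = −0.75, rho = −0.73, r = −0.71 without the 2 farthest libraries). With age the difference was 0.08 ± 0.16 (adjusted p = 0.787, edgeR). The genes most like Rara were Ctxn1 (r = 0.91), Zc3h13 (0.89) and Rhebl1 (0.88).

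The dimer partner Rxra (chr2:27676440-27762957) was the most abundant receptor of the set. Young ranged from 68.2 to 86.2 CPM with a median of 74.5, and Old measured 71.6, 76.3, 83.1 and 114. Old-Control libraries were at 64.5, 69.1 and 75.2 CPM and Old-OSK libraries at 130, 93.4, 94.9 and 73.4. The high libraries were Old-OSK replicates 1 to 3 and Old replicate 4, which are also the 4 libraries highest in corneal markers (10800 to 17300 CPM). The OSK difference was 0.49 ± 0.17 (adjusted p = 0.105, edgeR), or 0.57 without Old-OSK replicate 4 (adjusted p = 0.0393), and the age difference 0.2 ± 0.14 (adjusted p = 0.353). Deviations of Rxra correlated with the corneal marker score at r = 0.75 (rho = 0.68, r = 0.63 without the 2 farthest libraries). With that score as a covariate the age difference was −0.07. The OSK difference was 0.17 to 0.59 over the settings other than leaving out 1 library, the score among them. Its adjusted p there ran from 0.0557 to 0.917 (edgeR or DESeq2), so none of these settings called it. The share of corneal cells themselves was not measured. The genes most like Rxra were Arfgap3 (r = 0.95), Mvk (0.94) and G3bp1 (0.93).

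A list of 41 other genes of the pathway, of which 36 were tested, placed the set in its context. In Old against Young 4 of 36 were called, all higher, against 9.56% of all genes, a share close to that of the whole table. Before adjustment 13 had p under 0.05 (9 higher, 4 lower), against 4619 of 15944, and the list median was −0.028. Called were the retinol dehydrogenases Adh1 (2.31 ± 0.65, adjusted p = 0.0373, edgeR) and Adh7 (2.68 ± 0.69, adjusted p = 0.0274), the fatty acid and retinoid carrier Fabp5 (2.09 ± 0.59, adjusted p = 0.0383) and the transglutaminase Tgm2, a known target (2.71 ± 0.54, adjusted p = 0.00695). Adh7 measured 17.4, 200, 139 and 373 CPM in Old against 3.77 to 76.2 in Young, and Tgm2 17.2, 61.2, 49.9 and 244 against 8.16 to 19.9, so that Old replicate 1 stayed within the range of Young for both. No gene was called among the 8 for uptake and storage, the 4 receptors and the 7 coregulators. Without Old replicate 4, or with the corneal marker score as a covariate, none of the 36 was called, while 2.47% and 2.18% of all genes were.

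In Old-OSK against Old-Control none of the 36 was called by edgeR, against 0.728% of all genes. Before adjustment 16 had p under 0.05 (9 higher, 7 lower), against 4194 of 15944, and the list median was −0.001. DESeq2 called 11 of them, against 11.6% of all genes, and the replicate block 2, against 3.02%. The lowest p-values belonged to the receptor Rarg and to Tgm2, both higher in Old-OSK. Rarg measured 148, 101, 101 and 38.4 CPM in Old-OSK against 19, 38.4 and 28.8 in Old-Control (1.75 ± 0.5, adjusted p = 0.0788, edgeR), and was called with the replicate block. Tgm2 measured 243, 169, 91.8 and 39.7 CPM against 19.4, 31.6 and 19.8 (2.52 ± 0.72, adjusted p = 0.0788). In both genes Old-OSK replicate 4, the library with the fewest corneal transcripts of its group, was the lowest. The count was 13 without Old-Control replicate 2 and 5 without Old-OSK replicate 4, and the calls over all genes moved the same way, from 116 to 2881 (17.9%) and to 1738 (11%). In Old-Control against Old none was called and 1, Tgm2, had p under 0.05 before adjustment (−1.98 ± 0.71, adjusted p = 0.9, edgeR). The next lowest p was that of the receptor Rxrg (0.58 ± 0.28, adjusted p = 0.9).

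**Figure D5:**
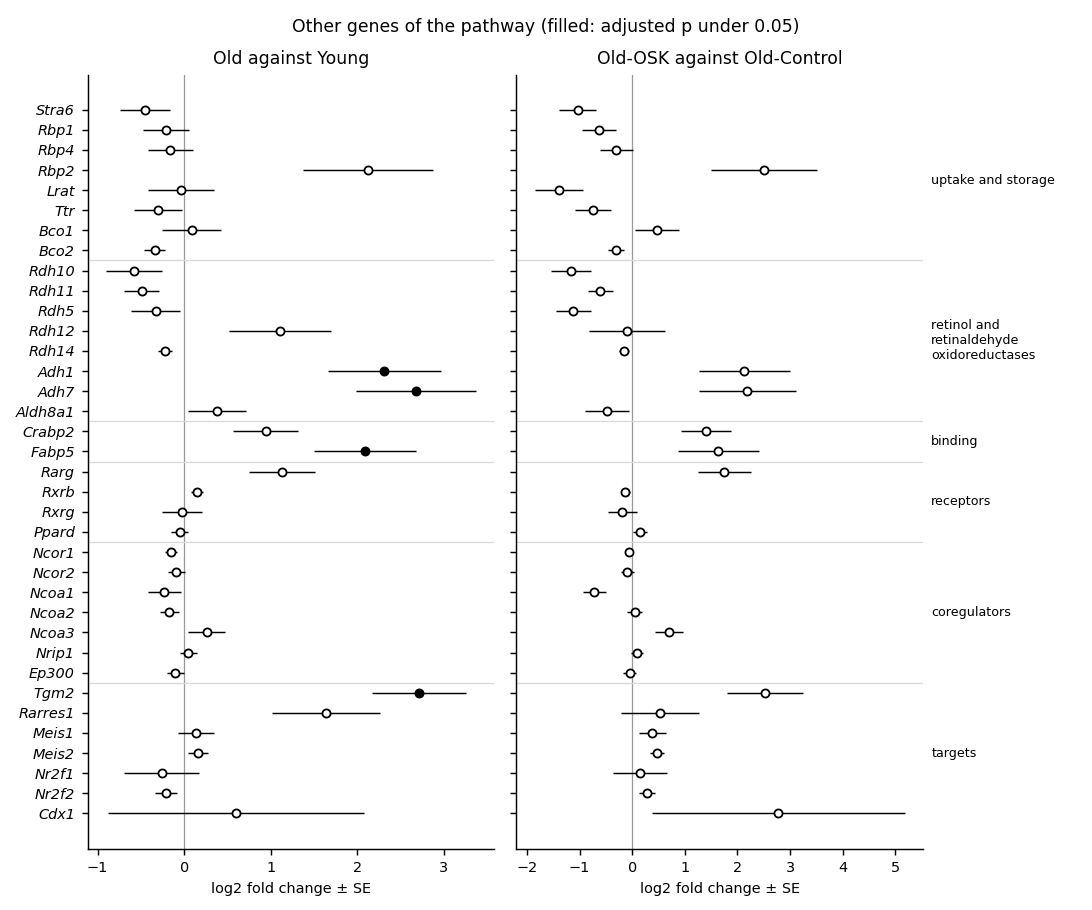
Log2 fold change from edgeR, ± SE derived from its F statistic, of the 36 tested genes of the wider pathway list. Genes are grouped by role, in Old against Young (left) and Old-OSK against Old-Control (right), filled where the adjusted p was under 0.05. Filled points are Adh1, Adh7, Fabp5 and Tgm2 on the left, and no point is filled on the right.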

How the data were processed

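Raw counts per gene of 18 libraries were deposited as 1 table by the authors. Per the submitters' processing notes, tools included STAR 2.7.1a and featureCounts 1.6.2, with mouse builds GRCm38 and mm10 named. The annotation and strand setting are not given in the sources used here, so reads of overlapping or antisense genes cannot be told apart. Per the labels' protocols, RNA was extracted with TRIzol and amplified by PCR with SMART-Seq v4 and Nextera XT, so intervals from counting alone are too narrow. Library totals were 18104828 to 32348136 counts. No pair of replicates agreed within counting noise (lowest chi-square per gene 19.1).

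Genes were filtered with filterByExpr (minimum count 10, minimum total 15) and normalised by TMM. The main test was the quasi-likelihood test of edgeR 4.0.16 (glmQLFit and glmQLFTest in R 4.3.3) with 4 group means over all libraries, adjusted by Benjamini-Hochberg over 15944 genes. A gene is called at an adjusted p under 0.05. Levels are CPM after TMM. Levels per kilobase use the exon union of GENCODE M21 (GRCm38). Likeness is the correlation, over 18 libraries, of deviations of log2 CPM (prior count 2) from group means, without p-values. For each of the 10 genes whose mean log2 CPM reached 1 (all but Crabp1) the 3 most similar genes are named. Of the pathway list, called genes are named, or otherwise the 2 with the lowest p. The genes, lists and rules were chosen with earlier results of these data known. The test was tried on simulated data. Of 14 marker lists compared, 12 are described, by their calls or beside a gene they varied with, and the others are not reported here.

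The main test used no pairing, and a fit with the replicate number as a block was tried beside it. The deviations of same-numbered libraries of Old-OSK and Old-Control correlated at 0.103, 0.421 and 0.339. Libraries of different numbers were not compared in this way, so these values cannot show whether the numbers are pairs. The labels do not say what the numbers share. A block fit used only libraries whose number occurs in both groups compared. It left out Old-OSK replicate 4 for OSK, Young replicates 5 to 7 for age and Old replicate 4 for Old-Control against Old. Other tools and settings, described in the closing section, were DESeq2 1.42.0, median-ratio scaling, no filter, a fit of 2 groups alone, covariates, the block and leaving libraries out.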

Additional observations from a re-analysis of the deposited data

Results flagged for a closer look

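Of 30 sets of values (10 genes in the 3 groups of 4 to 10 libraries), 2 held a library standing apart from the others of its group, where chance alone gives about 1 in 20. Rarb in Old was 11.7 CPM in replicate 4, against 16.7 in the nearest of the other 3 libraries and 17.3 in the highest. That library also held 12400 CPM of the 7 RPE markers, the lowest sum in Old, and 12500 CPM of the 4 corneal markers, the highest in Old. Crabp1 in Young was 1.36 CPM in replicate 1, against 0.53 in the nearest of the other 6 libraries and 0 in the lowest. Without that library the age difference of Crabp1 was 3.31 (adjusted p = 0.0185, edgeR).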

How the results depend on the processing

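Values are edgeR log2 differences or counts of called genes, and causes were not tested. In Old against Young, Crabp1 was the 1 gene of the set called. The count was 0 with no low-count filter, with M as a covariate, with the replicate block, with the corneal marker score as a covariate, without Old replicate 4 and Old-Control replicate 2 together, and in the libraries without M alone. It was 3 in DESeq2 (Aldh1a3, Cyp26a1, Crabp1), and leaving out 1 library gave 0 to 2. The corneal score, the joint omission and the libraries without M were chosen after seeing the data. The pathway count of 4 was 1 with M as a covariate, 0 with the replicate block, 0 in each of those 3 alternatives, and 0 to 7 when leaving out 1 library (0 without Old replicate 4, 7 without Young replicate 3). In Old-OSK against Old-Control the set's count of 0 was 2 in DESeq2, 1 with the replicate block, 3 with both doubted libraries left out, and 0 to 3 when leaving out 1 library (2 without Old-Control replicate 2, 3 without Old-OSK replicate 4). The pathway count of 0 was 11, 2, 13 and 0 to 13 in the same order. In Old-Control against Old every alternative gave 0. The replicate block changed no other call. Same-numbered libraries correlated at −0.05, −0.019, 0.144 and −0.193 for age and at 0.197, −0.189 and 0.359 for Old-Control against Old. Without the r of different numbers, these values do not decide whether the numbers pair the libraries. Called genes over the whole table fell from 1524 to 0 with the block for age. That fit also left out Young replicates 5 to 7, the Young libraries with M, so the fall cannot be assigned to the block alone.

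All other changes of direction concerned differences that were not called. For age, the corneal score turned Aldh1a1 to −0.01, Rara to −0.02, Rxra to −0.07, Dhrs3 to 0.09 and Rarb to 0.13. The replicate block turned Dhrs3 to 0.13 and Rarb to 0.03, both libraries left out gave 0.03 and 0.03, and the libraries without M gave 0.12 and 0.04. Leaving out 1 library gave −0.38 to 0.04 for Aldh1a2, −0.08 to 0.02 for Dhrs3 and −0.16 to 0.01 for Rarb. For OSK, Aldh1a1 was −0.11 with M as a covariate, −0.59 with the corneal score and −0.21 to 1.6 when leaving out 1 library, and Crabp1 −0.1 with M and −0.12 to 2.15 when leaving out 1. For Old-Control against Old, the replicate block gave −0.28 for Aldh1a1, −0.07 for Cyp26a1, 0.13 for Cyp26b1 and −0.54 for Crabp1, and both libraries left out gave −1.04 for Aldh1a1, −0.29 for Cyp26a1 and −1.5 for Crabp1. Leaving out 1 library there gave −1.28 to 0.56 for Aldh1a1, −0.2 to 0.47 for Cyp26a1, −1.17 to 0.38 for Cyp26b1, −0.22 to 0.03 for Dhrs3, −0.38 to 0.16 for Rara, −0.13 to 0.12 for Rarb and −1.59 to 0.69 for Crabp1. Depth limits Crabp1 and Cyp26a1, which had 0 to 185 and 18 to 117 counts per library.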

Other observations

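Genes of vitamin A uptake and the visual cycle are a further group that separated partly between the vector groups. They were picked here after their values were seen, so no test is drawn from them. Mean levels in Old-OSK and Old-Control were 1400 and 3050 CPM for Rdh5, a retinol dehydrogenase of the RPE visual cycle, and 1140 and 2990 CPM for Lrat, which esterifies retinol for storage. Rdh10, which oxidises retinol on the route to retinoic acid, was at 1060 and 2380 CPM, and Stra6, the membrane receptor for retinol-binding protein, at 648 and 1340 CPM. In edgeR their log2 differences were −1.12, −1.39, −1.16 and −1.04, none past the adjusted threshold. The ranges of the groups overlapped for each, because Old-Control replicate 2 was as low as the Old-OSK libraries (Rdh5 1200 CPM, Lrat 822 CPM). The summed RPE markers of that library were 8960 CPM, within the 6110 to 11800 CPM of Old-OSK and below the 22000 and 27200 CPM of the other Old-Control libraries.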
